A study of Homo sapiens with 6 samples.

Results

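ESM1, SDC2 and LUM encode the proteoglycans endocan, syndecan-2 and lumican, and are 3 of the 14884 genes measured by name on these arrays. They were chosen by their measured difference between cells expressing S22A-progerin and cells expressing wt-progerin, so that difference is given for them as a description with no test. Each gene was read through the probe set that the platform annotation names for it, and each had 1 such probe set. The source was U-2 OS, a cell line from a human osteosarcoma, profiled on 6 whole-transcript arrays. On 3 arrays the cells had been infected with a retroviral vector for S22A-progerin, and on the other 3 with the same kind of vector for wt-progerin. Progerin is the truncated lamin A that keeps its farnesyl group and causes Hutchinson-Gilford progeria, and S22A replaces serine 22, a residue phosphorylated when the lamina comes apart in mitosis, with alanine. Both groups therefore expressed progerin from a vector, were kept in puromycin at 5 µg/ml for 3 days and were collected 4 days after infection. Cells lacking progerin were not analysed here, and a difference does not tell which group departed from the parent line.

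A proteoglycan is a core protein that carries sulfated glycosaminoglycan chains. The chains are built in the Golgi, heparan sulfate and chondroitin or dermatan sulfate on a shared linker attached to serine, and keratan sulfate on other linkages. Endocan is secreted, carries a dermatan sulfate chain, and is best known from endothelial cells, where VEGF and inflammatory cytokines induce it. Syndecan-2 spans the plasma membrane, carries heparan sulfate that binds growth factors and matrix, and is the syndecan typical of mesenchymal cells, bone cells included. Lumican belongs to the small leucine-rich proteoglycans, binds collagen fibrils, and carries keratan sulfate in the cornea, where it is needed for transparency.

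The array medians were 6.05, 6.08 and 6.09 on the log2 scale in S22A-progerin and 6.04 on each wt-progerin array. The leading principal component separated the groups and carried 69.1% of the variance, and the second carried 11.1% and set S22A-progerin replicate 3 (-15.5) apart from replicates 1 and 2 (6.51 and 9.29). LMNA, which encodes lamin A and progerin, read 8.31, 8.26 and 8.29 in S22A-progerin and 8.17, 8.15 and 8.10 in wt-progerin, a difference of 0.15 (SE 0.051) that did not pass (adjusted p = 0.0796). Whether its probe set also reads the vector's transcript was not checked here, so these values do not show that progerin was expressed alike in the groups. Of the osteoblast markers, RUNX2, the master transcription factor of the lineage, was read at 8.03 ± 0.147 in S22A-progerin and 8.77 ± 0.068 in wt-progerin (SD, n = 3 each). SPP1, osteopontin, went the other way, at 8.36 ± 0.106 in S22A-progerin and 7.18 ± 0.091 in wt-progerin. IBSP, bone sialoprotein, lay near the bottom of the scale at 3.88 ± 0.195 and 3.86 ± 0.129. Neither IBSP nor SP7, DLX5 and DMP1 passed. The labels describe the replicates as independent, and p-values here reflect only the scatter among these 6 arrays. In RNA from whole cultures, fewer cells that express a gene and less RNA per cell cannot be told apart.

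Endocan was far more abundant as a transcript in S22A-progerin cells, and syndecan-2 and lumican were less abundant. ESM1 read 10.45, 10.33 and 10.19 on the log2 scale in S22A-progerin and 6.46, 6.62 and 6.36 in wt-progerin. The lowest S22A-progerin array lay 3.57 above the highest wt-progerin array, while the arrays of each group spanned only 0.256 and 0.267. The means were 10.32 ± 0.128 in S22A-progerin and 6.48 ± 0.135 in wt-progerin (SD, n = 3 each), a difference of 3.85 (SE 0.093) or 14.4-fold. Of 14884 genes, 1 had a larger rise, the noncoding RNA LINC00520 at 4.13.

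SDC2 read 8.23, 8.27 and 8.20 in S22A-progerin and 9.93, 10.02 and 9.89 in wt-progerin. The groups were separated by 1.62, with every S22A-progerin array low, and replicate 2 was the highest array of both groups. The means were 8.23 ± 0.033 in S22A-progerin and 9.95 ± 0.068 in wt-progerin (SD, n = 3 each), a difference of -1.71 (SE 0.057), 3.28-fold lower in S22A-progerin. It ranked 6th among the falls of all genes and was 47th by size in either direction.

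LUM read 10.10, 9.95 and 9.89 in S22A-progerin and 11.15, 11.07 and 11.13 in wt-progerin. The groups were separated by 0.973 and did not overlap. The means were 9.98 ± 0.104 in S22A-progerin and 11.12 ± 0.042 in wt-progerin (SD, n = 3 each), a difference of -1.14 (SE 0.068), 2.20-fold lower in S22A-progerin. It ranked 44th among the falls and was 170th by size.

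Each of these 3 differences was large beside the rest of the arrays, where the median difference of all genes was -0.00367 and the median size 0.134 on the log2 scale. With any 1 array left out, the difference ranged from 3.78 to 3.92 for ESM1, from -1.74 to -1.68 for SDC2 and from -1.19 to -1.09 for LUM. Among all genes, 25.4% passed the test, 10.8% as higher and 14.6% as lower in S22A-progerin, and in 42.1% the arrays of the groups did not overlap. Since the members were chosen from this contrast, nothing is read from their place against those shares.

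**Figure D1:**
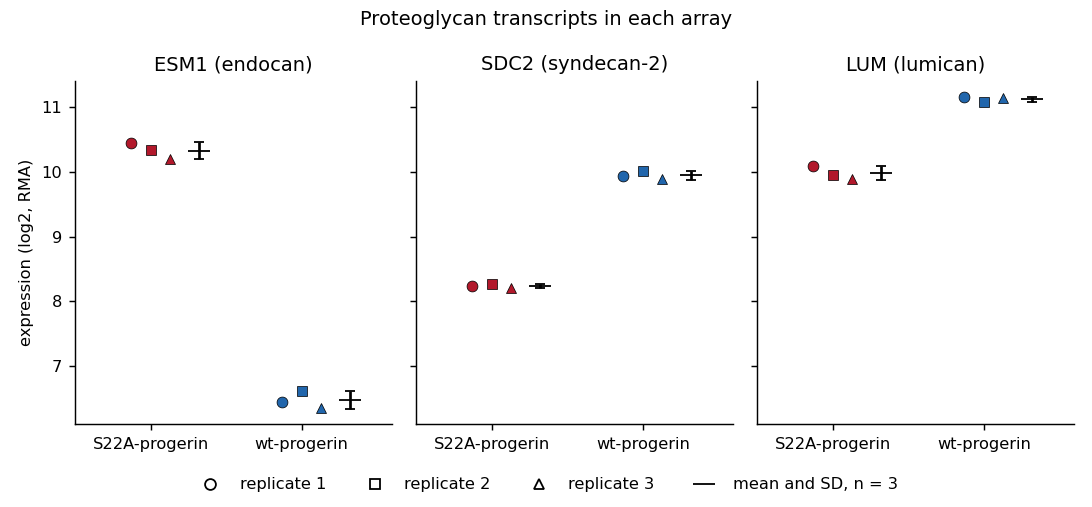
Log2 signal of ESM1, SDC2 and LUM on each array, S22A-progerin left of wt-progerin, with the mean and SD of each group. The S22A-progerin arrays sit from 10.19 to 10.45 for ESM1, above wt-progerin, and from 8.20 to 8.27 for SDC2 and 9.89 to 10.10 for LUM, below it.

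The genes whose profile over the 6 arrays lay closest to that of ESM1 were MYCT1, GDF15, CXCL8, LINC00520 and HTN1. Closeness is the Euclidean distance between log2 profiles, each centred on its own mean, and was 0.235 for MYCT1 and 0.595 for HTN1. MYCT1, named as a target of MYC, read 8.83, 8.75 and 8.79 in S22A-progerin and 5.10, 5.11 and 4.79 in wt-progerin, a difference of 3.79. GDF15, a cytokine made under cell stress, differed by 3.55 and the neutrophil chemokine gene CXCL8 by 3.56. The RNA of LINC00520 differed by 4.13 and that of HTN1, a salivary histatin, by 3.77. The promoters of ESM1 and of the 4 of these genes with an entry in the promoter table are printed because their profiles lay closest. They are the 250 bases before the annotated start in RefSeq assembly GRCh38.p14, read on the strand of the gene, and capitals mark the motifs found. ESM1 lies at chr5:54985594-54985843 on the minus strand, MYCT1 at chr6:152697696-152697945, GDF15 at chr19:18385908-18386157, CXCL8 at chr4:73740319-73740568 and HTN1 at chr4:70050188-70050437, these 4 on the plus strand.
ESM1: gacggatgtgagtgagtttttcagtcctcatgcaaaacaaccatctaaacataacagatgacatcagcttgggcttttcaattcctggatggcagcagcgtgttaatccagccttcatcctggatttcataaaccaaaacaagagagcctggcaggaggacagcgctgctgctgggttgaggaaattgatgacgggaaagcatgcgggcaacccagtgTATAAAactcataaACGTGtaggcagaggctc
MYCT1: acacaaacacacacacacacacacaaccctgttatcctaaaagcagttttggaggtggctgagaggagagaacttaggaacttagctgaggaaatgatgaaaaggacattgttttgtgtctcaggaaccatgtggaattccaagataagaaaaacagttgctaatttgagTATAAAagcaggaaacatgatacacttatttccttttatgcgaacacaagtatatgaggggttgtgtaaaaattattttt
GDF15: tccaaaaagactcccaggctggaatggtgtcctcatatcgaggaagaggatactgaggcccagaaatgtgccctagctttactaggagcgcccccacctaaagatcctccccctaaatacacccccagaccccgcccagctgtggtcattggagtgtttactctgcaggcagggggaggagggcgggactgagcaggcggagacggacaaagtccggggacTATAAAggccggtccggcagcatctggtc
CXCL8: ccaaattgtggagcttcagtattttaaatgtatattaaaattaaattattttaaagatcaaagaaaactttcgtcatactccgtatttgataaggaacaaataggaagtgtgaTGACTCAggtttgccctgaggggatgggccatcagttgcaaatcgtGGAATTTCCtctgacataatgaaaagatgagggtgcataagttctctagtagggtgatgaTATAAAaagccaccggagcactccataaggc
HTN1: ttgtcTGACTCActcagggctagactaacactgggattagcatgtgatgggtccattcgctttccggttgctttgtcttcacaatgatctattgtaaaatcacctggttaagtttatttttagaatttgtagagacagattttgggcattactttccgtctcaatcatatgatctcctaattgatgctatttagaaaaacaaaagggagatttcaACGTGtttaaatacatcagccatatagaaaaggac

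Both strands were searched for TATAAA, the TATA box, for TGANTCA, a form bound by AP-1, for GGANTTTCC, a form bound by NF-kB, and for ACGTG, the core bound by hypoxia factors. TATAAA stands in 4 of the 5 promoters and not in that of HTN1. It lies at 32 to 27 bases before the start in ESM1, 80 to 75 in MYCT1, 29 to 24 in GDF15 and 31 to 26 in CXCL8, while 11.1% of the 27305 RefSeq promoters of this length hold it. ACGTG stands in ESM1 at 18 to 14 and in HTN1 at 35 to 31 bases before the start, and in 18.7% of all promoters. TGANTCA stands in CXCL8 at 137 to 131 and in HTN1 at 245 to 239 bases before the start, and in 6.60% of all promoters. GGANTTTCC stands in CXCL8 at 91 to 83 bases before the start, and in 1.47% of all promoters. These matches are a description of the letters, and a motif that was not found says nothing about its factor.

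The genes closest to SDC2 were ACKR3, A2M, PIEZO2, LINC00312 and AMOT, at distances of 0.185 to 0.302. ACKR3, a scavenging receptor for CXCL12, read 6.07, 6.04 and 6.01 in S22A-progerin and 7.64, 7.63 and 7.66 in wt-progerin, a difference of -1.60. A2M, a protease inhibitor of blood plasma, differed by -1.58, PIEZO2, a stretch-gated channel, by -1.60, and AMOT, angiomotin, by -1.60. The profile of LUM was closest to RNF150, GLP2R, MMP24, LRRN1 and CEP70, at distances of 0.0894 to 0.165. RNF150, a RING finger protein gene, differed by -1.09, GLP2R, the glucagon-like peptide 2 receptor, by -1.10, and MMP24, a membrane-type metalloproteinase, by -1.08. With 3 arrays a group, a likeness of profile rests almost wholly on the difference between the groups, so it was measured and not tested.

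**Figure D2:**
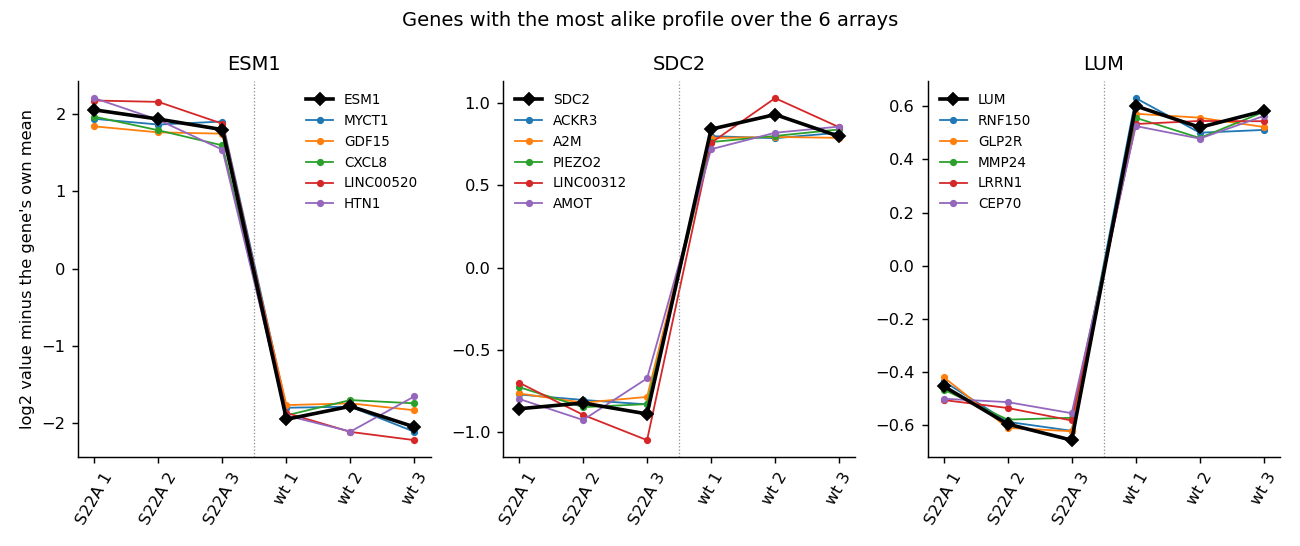
Log2 values, each gene centred on its own mean over 6 arrays, for ESM1, SDC2 and LUM and the 5 genes nearest to each, with S22A-progerin arrays left of wt-progerin arrays. The ESM1 profile separates the groups by 3.85, that of SDC2 by -1.71 and that of LUM by -1.14.

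The nearest genes in RefSeq order differed less than the 3 proteoglycan genes, except for EPYC near LUM. ESM1 lies between SNX18 and GZMK, and none of its 4 nearest measured neighbours passed, with SNX18 at -0.11 (adjusted p = 0.266), GZMK at -0.05 (adjusted p = 0.749) and CDC20B, nearest to passing, at 0.23 (adjusted p = 0.0610). LUM lies in a cluster of leucine-rich proteoglycan genes, where EPYC, epiphycan of cartilage, fell by 1.35 (SE 0.145, limma adjusted p = 0.000721). EPYC read 5.01, 5.55 and 5.08 in S22A-progerin and 6.51, 6.49 and 6.69 in wt-progerin, and the groups did not overlap. The other 2 cluster members did not pass. KERA, keratocan of the cornea, averaged 3.78 in S22A-progerin and 3.71 in wt-progerin, and DCN, decorin, 3.20 in both, near the bottom of the scale, where presence cannot be told from absence. SDC2 lies between PTDSS1 (-0.16, adjusted p = 0.0756) and CPQ (-0.08, adjusted p = 0.584). Beyond them MTERF3, a mitochondrial transcription factor, fell by 0.28 (adjusted p = 0.0210), and TSPYL5 fell by 0.21 (adjusted p = 0.0289). MTERF3 lost its call without S22A-progerin replicate 3 (-0.24) or wt-progerin replicate 1 (-0.23), and TSPYL5 without any 1 array but S22A-progerin replicate 1, at -0.23 to -0.18.

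**Figure D3:**
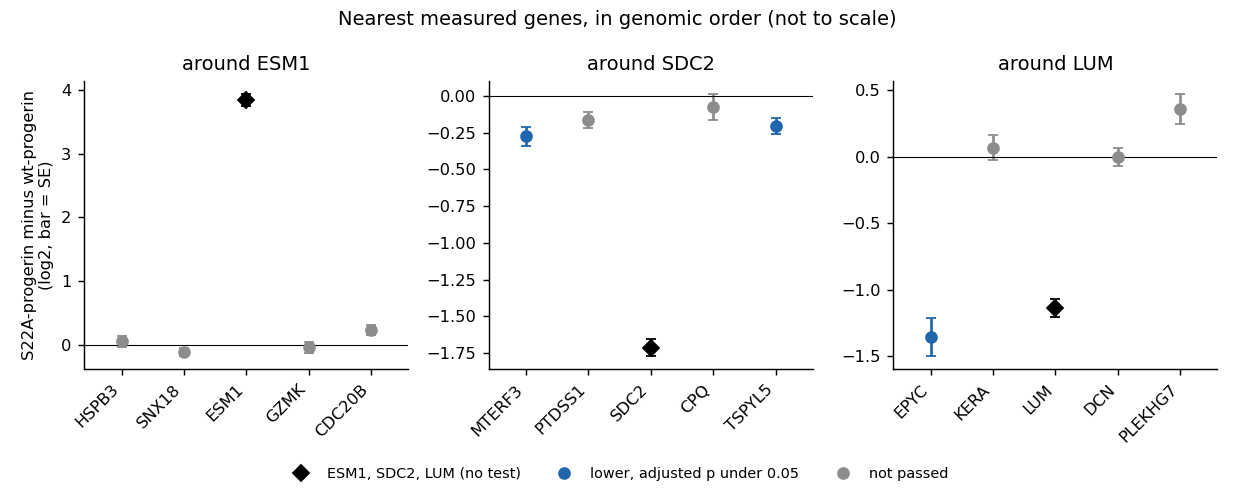
Difference in log2 signal, S22A-progerin minus wt-progerin, of each proteoglycan gene and its 2 nearest measured neighbours on either side in RefSeq order, with panels on their own scales. ESM1 (3.85) and SDC2 (-1.71) stand beside neighbours within 0.28 of 0, and LUM (-1.14) stands near EPYC (-1.35).

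Syndecan-2 was lower alongside several other heparan sulfate proteoglycans of the cell surface, while another syndecan rose. Of the 9 others measured, 1 rose and 5 fell, and 3 did not pass (median -0.41). Thus 66.7% of this short list passed, against 25.4% of all genes. GPC4, a glypican anchored to the membrane by a lipid, read 7.51, 7.38 and 7.52 in S22A-progerin and 8.39, 8.33 and 8.36 in wt-progerin, and fell 1.86-fold (adjusted p = 0.000101). Every S22A-progerin array lay below every wt-progerin array. The glypicans GPC6 (-0.52) and GPC5 (-0.53), and SDC3 (-0.41), the syndecan of nerve and muscle, fell as well. SDC4, a focal adhesion syndecan, was the member that rose, at 12.22, 12.21 and 12.26 in S22A-progerin and 11.84, 11.93 and 11.79 in wt-progerin (0.38, SE 0.058, adjusted p = 0.00369). SDC1, the epithelial syndecan, was higher by 0.16 and GPC1 lower by 0.12, and neither passed (adjusted p = 0.0594 and 0.219). The fifth fall, GPC3 (-0.44), was named after its values were seen, because its call was lost without S22A-progerin replicate 2 or without wt-progerin replicate 1 or 2 (adjusted p up to 0.0555).

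Most of lumican's own family of small leucine-rich proteoglycans did not pass, as was true of most genes. Among 16 others measured 1 rose, 2 fell and 13 did not pass (median -0.0049), so that 18.8% passed, against 25.4% of all genes. Besides EPYC, the fall was PODNL1, a podocan-like protein, which read 7.57, 7.60 and 7.54 in S22A-progerin and 8.56, 8.83 and 8.77 in wt-progerin, 2.22-fold lower (adjusted p = 0.000113). TSKU, tsukushi, rose by 0.33 (SE 0.057, adjusted p = 0.00565), and BGN, biglycan, did not pass at -0.01 (adjusted p = 0.958). Like DCN and KERA, ASPN averaged only 3.60 in S22A-progerin and 3.57 in wt-progerin, and OMD 3.59 and 3.53. At such levels presence cannot be told from absence, and a difference could be missed.

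Of 11 other secreted and basement membrane proteoglycans, 1 rose, 2 fell and 8 did not pass. The 27.3% that passed was close to the 25.4% of all genes. SRGN, serglycin of secretory granules, rose by 0.52 (SE 0.103, adjusted p = 0.00985). HSPG2, perlecan, fell 1.43-fold (adjusted p = 0.0036), and AGRN, agrin, fell by 0.39 (SE 0.065). VCAN, versican, was higher by 0.12 and did not pass (adjusted p = 0.219). Among 7 other membrane proteoglycans 2 rose and none fell, and the 28.6% that passed was close to the 25.4% of all genes. NRP1, a coreceptor for VEGF that may carry a chain, rose 1.74-fold, and CD44, the hyaluronan receptor, rose 1.65-fold (adjusted p = 0.000357). Over the 4 lists of core proteins, 14 of 43 measured genes passed (32.6%, 5 higher and 9 lower), against 25.4% of all genes.

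**Figure D4:**
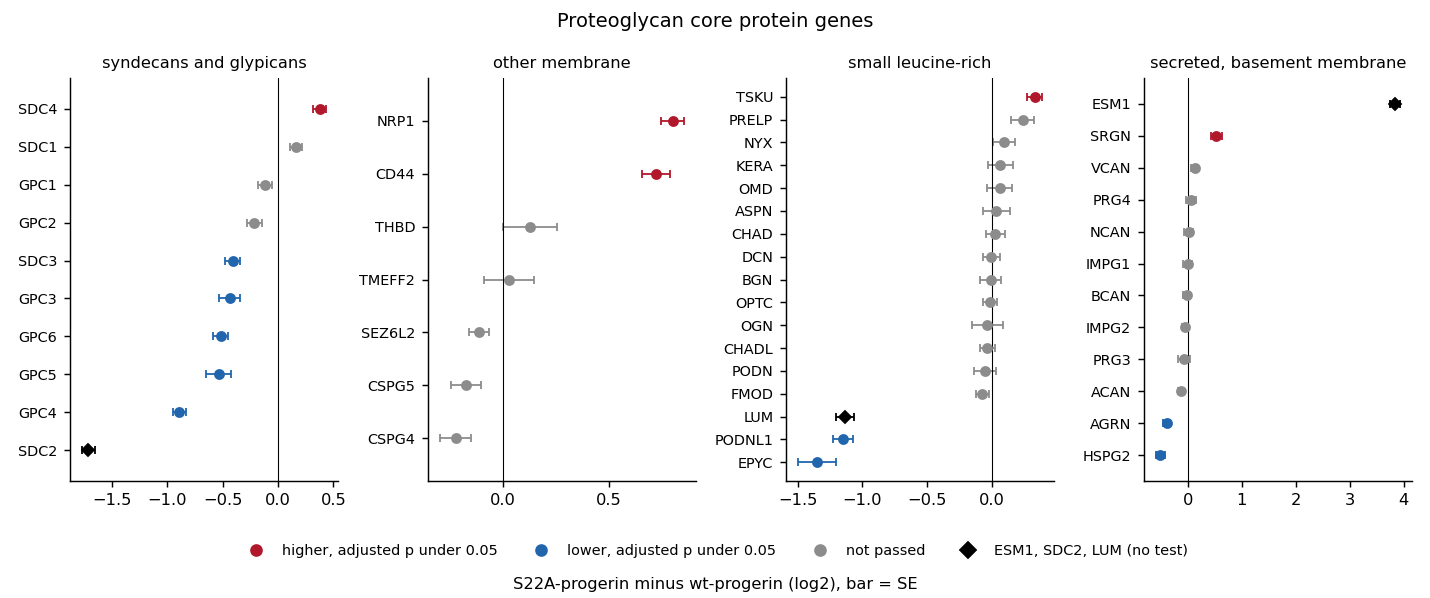
Difference in log2 signal, S22A-progerin minus wt-progerin, with its SE, for the core protein genes of each list, each panel on its own scale. GPC4 (-0.89), EPYC (-1.35) and PODNL1 (-1.15) lie to the left of 0, and SDC4 (0.38), NRP1 (0.80) and CD44 (0.72) to the right.

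Hyaluronan, the glycosaminoglycan made without a core protein, had its synthase HAS2 among the rises. HAS2 read 8.10, 7.81 and 7.97 in S22A-progerin and 6.72, 6.84 and 6.81 in wt-progerin, 2.25-fold higher (adjusted p = 0.000131). HAPLN1, which links hyaluronan to aggregating proteoglycans, read 8.27, 8.20 and 8.38 in S22A-progerin and 9.42, 9.40 and 9.42 in wt-progerin, 2.18-fold lower (adjusted p = 5.02e-05). HMMR, a hyaluronan receptor also active at the spindle, fell by 0.52 and CEMIP2, a membrane protein reported to degrade hyaluronan, by 0.44. These were the 4 of 12 measured members that passed (33.3%, against 25.4% of all genes).

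Among enzymes that build the chains on these core proteins, some rose and others fell. Over the lists of linker, heparan sulfate, chondroitin sulfate and keratan sulfate enzymes and of donor supply, 18 of 50 measured genes passed (36%, 6 higher and 12 lower), against 25.4% of all genes (10.8% higher and 14.6% lower), and the median difference was -0.01. The 6 rises were 3 without S22A-progerin replicate 1, and the 12 falls were 7 without S22A-progerin replicate 2, wt-progerin replicate 1 or wt-progerin replicate 3. For heparan sulfate, the chains of syndecan-2, 2 rose, 4 fell and 14 did not pass, so that 30% passed. EXT1, a subunit of the polymerase, rose 1.40-fold (adjusted p = 0.00118), while its partner EXT2 did not pass at 0.003 (adjusted p = 0.975). NDST1, which starts sulfation of the chain, fell 1.49-fold (adjusted p = 0.00103), and the sulfotransferase genes HS2ST1 (-0.40) and HS6ST1 (-0.36) fell. HS6ST3 rose (0.34) at a low signal, 5.78 in S22A-progerin and 5.44 in wt-progerin. GLCE, which epimerises the chain's uronic acid, fell by 0.32 (adjusted p = 0.0292) but did not pass with any 1 array left out except S22A-progerin replicate 3 (adjusted p up to 0.0944), and was named after its values were seen. None of the 3 measured linker enzymes passed. HPSE, heparanase, fell by 0.33 (adjusted p = 0.0351), and of the editing sulfatases SULF1 (0.25) and SULF2 (0.09) did not pass. Of 4 measured editing and cleavage enzymes 25% passed, against 25.4% of all genes. HPSE lost its call when any 1 of 5 arrays was left out, with adjusted p up to 0.106, and kept it only without S22A-progerin replicate 1.

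For the chondroitin and dermatan sulfate carried by endocan, 3 enzymes rose, 4 fell and 9 did not pass. Of these enzymes 43.8% passed, against 25.4% of all genes. CHST11, a chondroitin 4-O-sulfotransferase, rose 1.58-fold (adjusted p = 0.0011), and CHST12, of the same activity, fell by 0.33 (adjusted p = 0.00511). CHST14, the dermatan 4-O-sulfotransferase, fell by 0.24 and CHSY1, a chondroitin synthase, by 0.21, while CHST3, a chondroitin 6-O-sulfotransferase, rose by 0.20. Each of these last 3 lost its call when single arrays were left out: CHST3 with any 1 of the 6, CHST14 with any but S22A-progerin replicate 1, and CHSY1 with any but S22A-progerin replicate 3 (adjusted p up to 0.107). The remaining rise, CHPF (0.18), and fall, CHSY3 (-0.27), both of chondroitin polymerisation and named after their values were seen, did not pass with any 1 array left out (adjusted p up to 0.157). For keratan sulfate, the chains of corneal lumican, 1 of 5 measured enzymes rose, 2 fell and 2 did not pass. Thus 60% passed, against 25.4% of all genes. CHST6, the corneal sulfotransferase, read 8.15 on each S22A-progerin array and 8.50, 8.71 and 8.55 on wt-progerin arrays (-0.44, adjusted p = 0.00361). With its probe sets averaged CHST6 differed by -0.30, since its dimmer probe set differed by -0.16. CHST1 (-0.32) and CHST2 (0.40, at a low 5.79 in S22A-progerin and 5.40 in wt-progerin) passed in opposite directions. CHST1 did not pass with S22A-progerin replicate 2 or 3 or wt-progerin replicate 1 or 3 left out (adjusted p up to 0.0796). CHST2 did not with S22A-progerin replicate 1 or 2 or wt-progerin replicate 1 left out (adjusted p up to 0.0716). PAPSS1, which makes the sulfate donor, fell by 0.43 (adjusted p = 0.00792), and UGP2, which makes UDP-glucose, by 0.31. Of 6 measured donor supply genes these 2 fell and 4 did not pass, so that 33.3% passed, against 25.4% of all genes.

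In the lysosome, where the chains are broken down, SGSH, heparan N-sulfatase, read 8.84, 8.70 and 8.81 in S22A-progerin and 7.68, 7.53 and 7.39 in wt-progerin. It rose 2.37-fold (adjusted p = 0.000117), and every S22A-progerin array lay above every wt-progerin array. ARSB, which takes sulfate off dermatan sulfate, fell by 0.36 (adjusted p = 0.0053), and the other 5 measured lysosomal genes did not pass. Thus 28.6% of this list passed, close to the 25.4% of all genes.

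**Figure D5:**
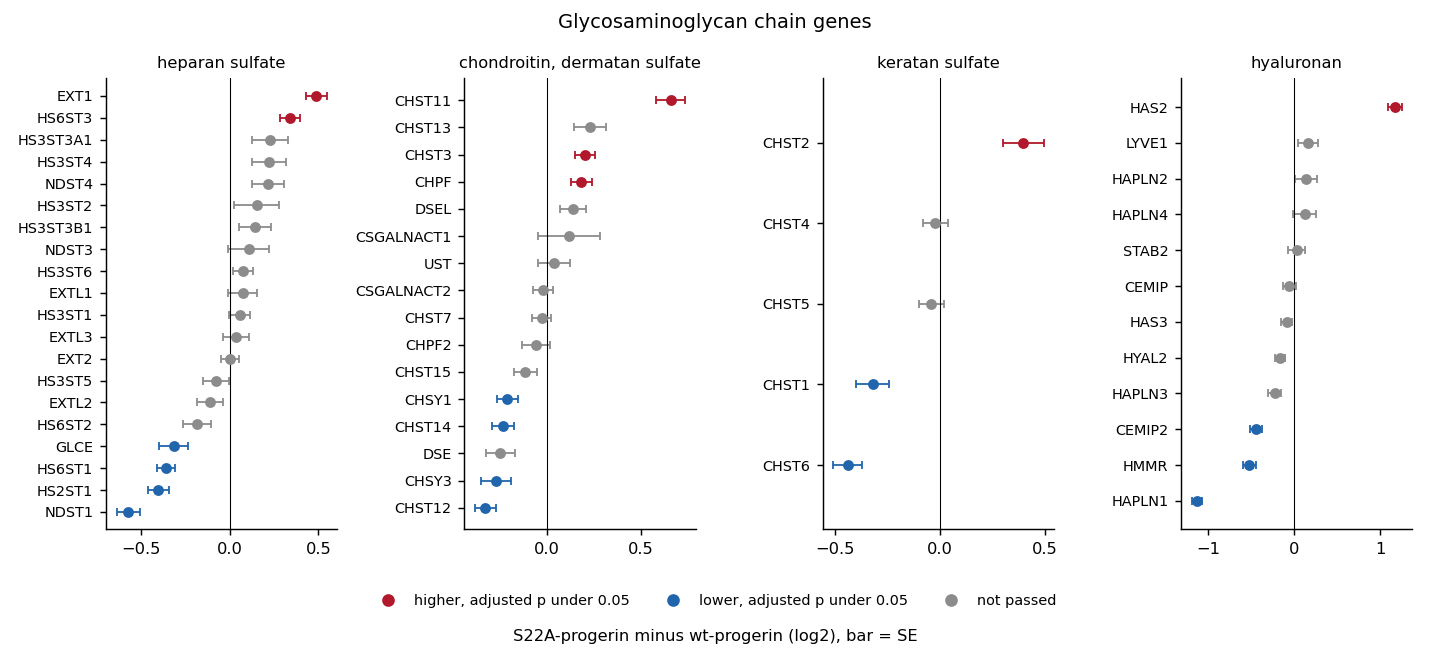
Difference in log2 signal, S22A-progerin minus wt-progerin, with its SE, each panel on its own scale. The panels hold genes of heparan sulfate, of chondroitin and dermatan sulfate, of keratan sulfate and of hyaluronan. EXT1 (0.49), CHST11 (0.66) and HAS2 (1.17) lie to the right of 0, and NDST1 (-0.57), CHST6 (-0.44) and HAPLN1 (-1.13) to the left.

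Among the partners of syndecan-2, 2 of 10 rose and 2 fell, so that 40% passed, against 25.4% of all genes. SDCBP, syntenin, which binds the syndecan tail, rose by 0.46 (SE 0.058, adjusted p = 0.00146). RDX, radixin of the cortical cytoskeleton, fell by 0.30, CASK, a scaffold that binds syndecan tails, fell by 0.21, and TIAM1, an activator of Rac, rose by 0.24. CASK differed by -0.39 with its probe sets averaged, since its dimmer probe set differed by -0.57. The calls of RDX, CASK and TIAM1 depended on the arrays used, and with 1 array left out their adjusted p reached 0.0778 for RDX, 0.133 for CASK and 0.125 for TIAM1. RDX was lost without S22A-progerin replicate 1 or 3 or wt-progerin replicate 2 or 3, CASK without any array but S22A-progerin replicate 1, and TIAM1 without any array but S22A-progerin replicate 2.

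Of 13 measured genes that induce endocan or act with it, 3 rose and 3 fell, so that 46.2% passed, against 25.4% of all genes. VEGFC, a growth factor of lymphatic endothelium, read 8.61, 8.49 and 8.56 in S22A-progerin and 7.73, 7.88 and 7.73 in wt-progerin, 1.71-fold higher (adjusted p = 0.000274). MET, the receptor for hepatocyte growth factor, rose by 0.46 and EPAS1, a hypoxia-inducible factor, by 0.51. VEGFA, an inducer of endocan, did not pass at 0.002 (SE 0.052, adjusted p = 0.982), nor did its receptors KDR (0.07) and FLT1 (0.08). FGFR1 fell by 0.33 (adjusted p = 0.0118), and FGF2 by 0.19 (adjusted p = 0.0426), a call that ended with any 1 array left out except S22A-progerin replicate 3 (adjusted p up to 0.139). FLT4, the VEGFC receptor, fell by 0.27 (adjusted p = 0.0448) but did not pass with any 1 array left out except wt-progerin replicate 2 (adjusted p up to 0.141), and was named after its values were seen. Of 4 measured lumican partners 1 rose, 1 fell and 2 did not pass, so that 50% passed, against 25.4% of all genes. TLR4, a lipopolysaccharide receptor whose response lumican modulates, read 10.14, 10.17 and 10.12 in S22A-progerin. It read 8.75, 8.80 and 8.84 in wt-progerin, and was 2.55-fold higher in S22A-progerin (adjusted p = 1.37e-05). MMP13, a collagenase, fell by 0.57 (SE 0.068). CD14 (0.18, adjusted p = 0.207) and CXCR2 (0.33, adjusted p = 0.13) did not pass, and the fibrillar collagens that lumican binds were not analysed here.

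Endocan is an endothelial gene and lumican a fibroblast one, so markers of those cells were set beside them. The summed signal of 11 endothelial markers, as log2 of the summed linear values, ran from 9.73 to 9.82 in S22A-progerin and from 9.69 to 9.78 in wt-progerin. Only CLDN5, a junction protein, passed, at 0.29 (adjusted p = 0.00555), and PECAM1 did not, at 0.008 (adjusted p = 0.98). Thus 9.09% of the endothelial markers passed, against 25.4% of all genes. The sum of 6 fibroblast markers ran from 11.35 to 11.39 in S22A-progerin and from 11.47 to 11.48 in wt-progerin, with 2 lower and none higher. Of these markers 33.3% passed, against 25.4% of all genes. The sum of 5 leukocyte markers ran from 10.18 to 10.29 in S22A-progerin and from 9.17 to 9.30 in wt-progerin. CD68, a lysosomal membrane protein, rose by 1.48 and the other 4 did not pass, so that 20% passed, against 25.4% of all genes. The sum of 6 osteoblast markers ran from 9.52 to 9.61 in S22A-progerin and from 9.53 to 9.61 in wt-progerin. Within it RUNX2 fell by 0.74, SPP1, osteopontin, rose by 1.18 and the other 4 did not pass. The 33.3% that passed stood against 25.4% of all genes. The cultures were of the cell line U-2 OS, and the markers were read as transcripts of that line. Any part of other cells or of RNA content in the differences of ESM1, SDC2 and LUM was not tested.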

How the data were processed

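The values are log2 expression deposited by the authors for 6 arrays, and RMA and Affymetrix Expression Console are named as the tools, per the submitters' processing notes. RMA combines background correction, quantile normalization and summaries per probe set. Their versions and a genome build were not given in the sources used here. Per the labels' protocols, Trizol RNA was labelled with the Ambion WT Expression kit. No detection call was used, so low signal and absence look alike, and the number of arrays limits the precision.

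The platform annotation gave 1 symbol for 16098 of 53617 probe sets, several for 0, and 37519 were not named here. RefSeq (GRCh38.p14) changed 0 symbols. Of 14884 genes, 779 were read by several probe sets, of which the one with the highest mean was kept. All genes were fitted together with limma 3.58.1 (R 4.3.3), lmFit and eBayes, two-sided, with no covariate, and adjusted p-values are limma's, by Benjamini-Hochberg over all 14884, called at 0.05. The code was tested on simulated data.

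The members and the 19 gene lists were chosen with earlier results of these data known. Named were the members, LMNA, up to 5 called genes of each list with the smallest p, well known members whatever their value, the 5 closest profiles per member, and the 2 nearest measured neighbours on either side. Alternatives covered normalization, dim genes, variance priors, array weights, the replicate block, single arrays left out and a threshold of 0.01.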

Additional observations from a re-analysis of the deposited data

How the results depend on the processing

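The differences of ESM1, SDC2 and LUM and of the named genes that passed kept their direction under every alternative in which they were tested. HS6ST3 and CHST2 were among the dimmer 25% of genes and were not tested with those left out. SDC3, GPC5, EPYC, SRGN, HPSE, CHST1, UGP2, FGFR1 and CLDN5 were likewise not tested with the dimmer 50% left out. Direction was not compared for genes that did not pass. At an adjusted p under 0.01, 852 genes were higher and 1226 lower, and chain synthesis kept 3 higher and 7 lower genes of the 6 and 12 at 0.05, by construction of the threshold. With 1 array left out, and so fewer arrays, the chain synthesis counts ran from 3 to 5 higher and from 7 to 9 lower, so those counts are not stable to single arrays. The counts of core proteins stayed within 1.5 times under every alternative. With the replicate number as a fixed replicate block, 1285 genes were higher and 1705 lower, and chain synthesis had 3 higher. With a random replicate block, 1501 were higher and 2043 lower. Same-numbered arrays deviated with correlations of -0.0195, -0.0549 and -0.00558, so no shared deviation was seen. The labels do not say whether a number marks a shared day, and these values cannot tell. With each array centred on its median, 1320 genes were higher and 2457 lower, and CHST3, TIAM1 and CHPF lost their calls. CASK, FGF2 and TSPYL5 lost theirs with the arrays quantile normalized again. The fixed block ended the calls of 10 of the 54 called genes under the naming rule. The random block ended those of TIAM1, FGF2, CHPF, CHSY3 and FLT4. LMNA, which did not pass, did with the arrays quantile normalized again or the dimmer genes left out. SDC1 also passed in those settings, with other variance priors, with array weights and without S22A-progerin replicate 3. Of the neighbours that did not pass, CDC20B did with array weights, PTDSS1 with the dimmer genes left out or other variance priors, and PLEKHG7 with the fixed block or without S22A-progerin replicate 1. With probe sets averaged, VCAN and SULF2, which did not pass, were at 0.08 and 0.03. Arrays without detection calls limit what can be said of genes near the bottom of the scale, DCN and KERA among them.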
